A study of Mus musculus with 10 samples.

Results

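The cholesteryl ester cycle and the exit of cholesterol from lysosomes were followed through 7 genes chosen by name: Soat1, Nceh1, Lipa, Lipe, Npc1, Npc2 and Stard3. All 7 were found by symbol among the 53465 genes of the deposited table, and all 7 passed the filter on low counts that left 13203 genes for testing. RNA was sequenced in bulk from peritoneal macrophages kept in culture without added treatment. The mice were aged 6 to 8 weeks and fell into 2 genotypes, the controls (CTR, 5 libraries) and Mac-GsαKO (KO, 5 libraries), which per its name lacks Gsα in macrophages. Gsα is the product of Gnas, a G protein subunit through which many receptors stimulate cyclic AMP synthesis. The sources used here do not state the alleles, what drives the deletion, or whether each library came from its own mouse, so every error and p-value below measures the spread between these libraries. The study asked what Gsα does in foam cells, the lipid-filled macrophages of the atherosclerotic wall.

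Macrophages take up lipoproteins by endocytosis, and the cholesteryl esters they carry are split in the lysosome by lysosomal acid lipase, the product of Lipa. The freed cholesterol is picked up inside the lysosome by the soluble protein NPC2 and handed to the membrane protein NPC1, which carries it out, while STARD3 holds late endosomes to the endoplasmic reticulum and moves cholesterol between them. In the endoplasmic reticulum SOAT1 joins excess cholesterol to a fatty acid, and the ester is stored in lipid droplets. Neutral hydrolases, among them the products of Nceh1 and Lipe, release it again for efflux. Hormone-sensitive lipase, the product of Lipe, is a classical substrate of protein kinase A, the kinase that cyclic AMP switches on.

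Promoter sequences are shown for 3 genes at different steps of the route, Soat1, Nceh1 and Stard3. They encode the esterifying enzyme, an opposing hydrolase and the late endosomal tether. The sequences let a reader see which letters near the starts could be read by factors of this pathway. Each is the 250 bases before the RefSeq start, 5′ to 3′ on the gene's strand, in GRCm38.p6, which is another build than the GRCm39 the submitters name. Soat1 is on the minus strand at chr1:156474329-156474578, Nceh1 on the plus strand at chr3:27182754-27183003 and Stard3 on the plus strand at chr11:98358118-98358367. Capitals mark the letters CACGTG in Nceh1, the core of the element bound by TFEB and its relatives, and a match to TCACNCCAC, a sterol regulatory element, in Stard3.
Soat1: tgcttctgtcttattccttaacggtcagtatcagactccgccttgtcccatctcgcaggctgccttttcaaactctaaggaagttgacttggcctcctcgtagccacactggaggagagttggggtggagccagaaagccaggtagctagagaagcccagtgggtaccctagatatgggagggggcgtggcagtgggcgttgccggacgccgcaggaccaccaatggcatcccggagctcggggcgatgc
Nceh1: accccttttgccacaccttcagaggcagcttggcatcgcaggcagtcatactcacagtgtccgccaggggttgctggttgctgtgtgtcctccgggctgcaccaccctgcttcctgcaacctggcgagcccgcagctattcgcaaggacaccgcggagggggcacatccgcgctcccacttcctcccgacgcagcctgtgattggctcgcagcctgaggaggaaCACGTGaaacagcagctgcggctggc
Stard3: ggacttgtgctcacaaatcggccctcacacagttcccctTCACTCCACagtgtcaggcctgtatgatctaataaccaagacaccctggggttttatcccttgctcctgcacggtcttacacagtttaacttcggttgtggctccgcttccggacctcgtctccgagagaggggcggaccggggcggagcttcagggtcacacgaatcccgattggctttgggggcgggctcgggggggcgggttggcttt
Entries were found for 6 of the 7 genes, all but Npc1. Both strands were searched for 4 motifs. The cyclic AMP response element TGACGTCA, found in 1.55% of 32851 promoter windows of this length, and its core TGACG, which lies within it and was found in 17.8%, matched none of the entries. CACGTG (6.02% of windows) matched Nceh1, starting 26 bases before the start, and the first of 2 Lipe entries. TCACNCCAC (1.05% of windows) matched Stard3, starting 211 bases before the start. No match says only that these letters are not in this window, and a match is not evidence of binding.

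The 10 libraries held from 15664243 to 19235777 counts each. Values are given as CPM, counts scaled to a common library size by TMM normalization, and a count of 0 would allow up to 0.154 to 0.203 CPM (3 counts, counting error only). The targeted gene Gnas ranged from 359 to 491 CPM over CTR and from 37.0 to 43.5 CPM over KO. CTR 4 and CTR 5 stood apart from the other CTR libraries on the first principal component (-34.7 in each, against -6.85 to -18.5), so the 7 genes, their ratios and the genes picked by rule from the pathway lists are also given without them. They were not alike on the second component, at -46.7 in CTR 4 and 9.46 in CTR 5, against 15.7 to 25.6 in the other CTR libraries. Macrophage markers summed to 4992 to 5651 CPM over the CTR libraries and 5413 to 6347 CPM over the KO libraries. Of the 6, 2 passed the test upward, where 1.83% of all genes tested did. They were Csf1r (log2 fold change 0.46, adjusted p = 0.0235) and Itgam (0.79, adjusted p = 0.0494, just under the threshold). Of the 5 neutrophil markers 2 were tested and 1, S100a8, fell (log2 fold change -0.56, adjusted p = 0.0443), where 2.11% of all genes were called lower. The other, Retnlg, had -0.13 (adjusted p = 0.919). Their sum was 18.9 to 27.4 CPM over CTR and 12.4 to 25.3 CPM over KO. It was mostly S100a8 (means 19.1 CPM in CTR and 13.0 CPM in KO). S100a9, Mpo and Elane had means of at most 0.226 CPM, so the sum is no measure of neutrophil content. Markers of adipocytes, the cells best known for Lipe, summed to at most 0.0584 CPM in CTR and 0.205 CPM in KO, with Adipoq and Lep at 0 in every library. B cell markers summed to 3.05 to 11.2 CPM over CTR and 11.996 to 19.4 CPM over KO, without overlap. Among single genes tested, 7.8% did not overlap. Fibroblast markers summed to 30.1 to 137 CPM over CTR, highest in CTR 5, and 48.6 to 65.3 CPM over KO. Their part in the results was not tested.

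None of the 7 genes passed the test between genotypes. At an adjusted p under 0.05 by edgeR's quasi-likelihood test 0 of 7 were called, where 3.94% of the 13203 genes tested were. At an unadjusted p under 0.05 by edgeR the counts were also 0 of 7, against 21.9% of all genes, and in 0 of 7 did the libraries of one genotype lie wholly above the other, against 7.8% of all genes. DESeq2 and limma voom, which called 9.76% and 14.5% of the genes, also called 0 of 7. The voom estimates were larger in size than those of edgeR for Soat1 (-0.20), Nceh1 (-0.23), Npc2 (0.25) and Stard3 (0.22). For these genes the unadjusted p by voom was under 0.05, which it was not by edgeR. Npc2 came closest to the threshold (adjusted p = 0.0564 by voom). The voom estimates were smaller in size for Lipa (-0.027) and Npc1 (0.024), and about the same for Lipe (0.09). In value 5 genes were higher in KO and 2 lower, with a median log2 fold change (KO over CTR) of 0.09 against -0.0058 over all genes tested. The 95% intervals of the 7 fold changes together ran from 0.782-fold, the lower limit of Nceh1, to 1.33-fold, the upper limit of Stard3. These are the outermost limits, and the interval of each gene is given with its values. In bulk RNA, fewer cells of a type and less RNA per cell cannot be told apart.

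**Figure D1:**
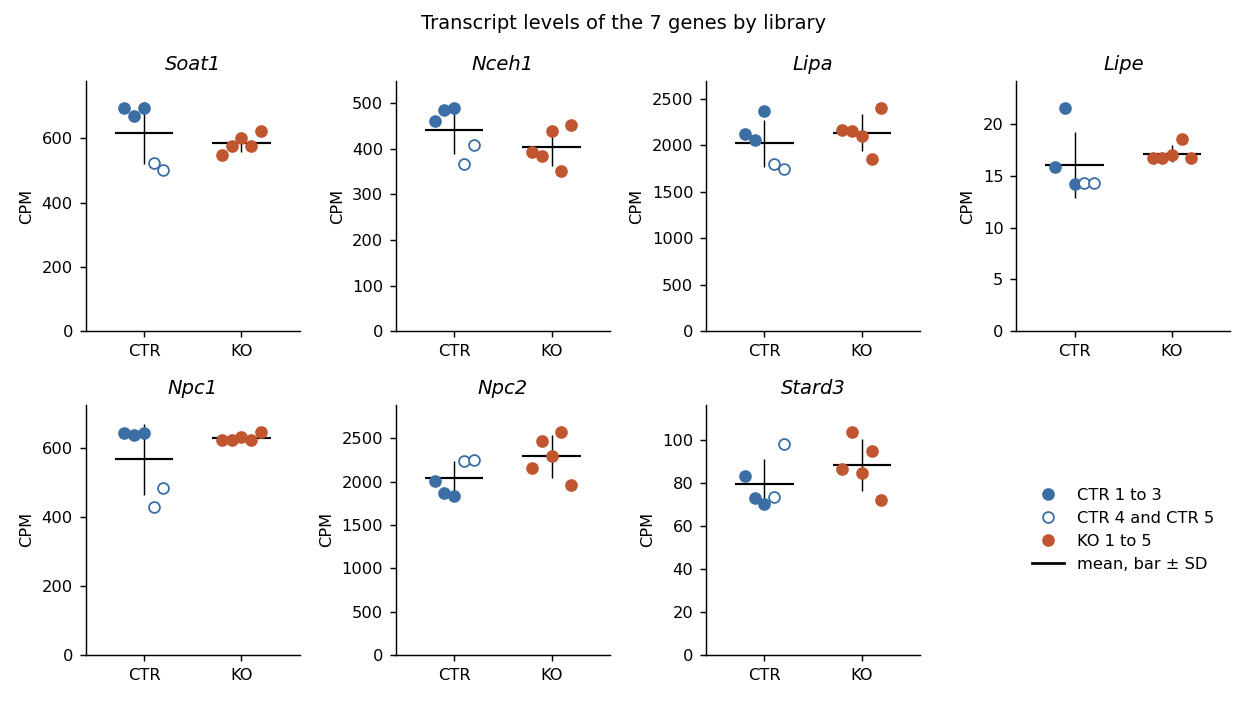
CPM (TMM-scaled) of the 7 genes in each library, 1 panel per gene with axes from 0, for 5 CTR and 5 KO libraries, with the mean as a line and ± SD as a bar. The genotypes overlap in every panel, and the open points of CTR 4 and CTR 5 lie below the other 3 CTR libraries for Soat1, Nceh1, Lipa and Npc1 and above them for Npc2.

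Soat1, the only cholesterol esterifying enzyme of the 7, stood at 693, 669, 694, 521.5 and 502 CPM in CTR 1 to CTR 5, and at 547, 575, 601, 576 and 622 CPM in KO 1 to KO 5. The KO libraries lay in a narrow band between a high and a low set of CTR libraries: CTR 1, CTR 2 and CTR 3 were above every KO library, and CTR 4 and CTR 5 below every one. The CTR mean was 616 ± 95.7 CPM (SD, n = 5) and the KO mean 584 ± 28.3 CPM (n = 5), which gave a log2 difference of -0.08 (SE 0.11, 95% interval -0.31 to 0.15, adjusted p = 0.705). With these low CTR libraries left out, Soat1 was lower in KO (log2 fold change -0.23, SE 0.060, 95% interval -0.36 to -0.095, adjusted p = 0.0438). The sign was negative with all 10 libraries too. As the CTR libraries kept were those above every KO library, the choice of libraries set the larger size. The adjusted p is therefore no separate evidence for lower Soat1 in KO. That fit called 8.76% of 13534 genes, 3.63% as lower, and Soat1 was the 1 of the 7 it called. With each library corrected for a trend on gene length, over all 10 libraries, the value was -0.16 (adjusted p = 0.223).

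Nceh1 encodes the neutral cholesteryl ester hydrolase of the endoplasmic reticulum. It stood at 460.3, 484, 489.5, 366 and 407 CPM in CTR 1 to CTR 5, and at 393, 383, 439, 351 and 452 CPM in KO 1 to KO 5. CTR 1, CTR 2 and CTR 3 again lay above every KO library, while CTR 4 and CTR 5 lay within the KO range. The log2 fold change was -0.13 (SE 0.10, 95% interval -0.36 to 0.097, adjusted p = 0.500), and -0.24 (SE 0.084, adjusted p = 0.0997) without CTR 4 and CTR 5.

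Lipe, the hormone-sensitive lipase gene, had the fewest reads of the 7, with 212 to 369 reads per library in CTR and 288 to 330 in KO. It stood at 15.9, 21.6, 14.2, 14.3 and 14.3 CPM in CTR 1 to CTR 5, and at 16.7, 16.7, 17.0, 18.6 and 16.7 CPM in KO 1 to KO 5. Apart from CTR 2, which was the highest of all 10, every CTR library lay below every KO library. The log2 fold change was 0.09 (SE 0.13, 95% interval -0.18 to 0.37, adjusted p = 0.694). It was 0.22 (adjusted p = 0.195) without CTR 2 and -0.00022 without CTR 4 and CTR 5, which leaves CTR 2 as 1 of 3 CTR libraries. An antisense gene that shares 918 exon bases with Lipe held 31 counts over the 10 libraries, against 2873 for Lipe. No source used here states the strand setting of the counting, so reads of such a partner cannot be told apart from those of the gene.

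Lipa, the lysosomal acid lipase gene, stood at 2123, 2055, 2372, 1799.5 and 1749 CPM in CTR 1 to CTR 5, and at 2163, 2155, 2104, 1848 and 2402 CPM in KO 1 to KO 5. The genotypes overlapped over most of their range, with the lowest values in CTR 4 and CTR 5 and the highest in KO 5 and CTR 3. The log2 fold change was 0.08 (SE 0.10, 95% interval -0.14 to 0.30, adjusted p = 0.683). Its sign was not stable, at -0.032 without CTR 4 and CTR 5 and -0.027 by voom.

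Npc1, the membrane transporter of lysosomal cholesterol export, was the most even of the 7 genes within KO and among the least even within CTR. It stood at 642, 636, 641, 428 and 483 CPM in CTR 1 to CTR 5, and at 622, 622, 629, 621 and 646 CPM in KO 1 to KO 5. CTR 1, CTR 2 and CTR 3 fell within the KO range, so the spread in CTR was that of CTR 4 and CTR 5 against the rest. The coefficient of variation was 18.2% in CTR and 1.69% in KO. The log2 fold change was 0.15 (SE 0.12, 95% interval -0.10 to 0.40, adjusted p = 0.482), and -0.024 (SE 0.053, 95% interval -0.14 to 0.094) without CTR 4 and CTR 5. With no library left out it was 0.048 (SE 0.075) with the length trend corrected and 0.024 (SE 0.078) by voom. Rmc1, a gene on the opposite strand that shares 511 exon bases with Npc1, held 4.89% as many counts as Npc1.

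Npc2, the lumenal partner that feeds cholesterol to NPC1, stood at 2007, 1869.7, 1838, 2236 and 2254 CPM in CTR 1 to CTR 5, and at 2155, 2468, 2301, 2579 and 1962 CPM in KO 1 to KO 5. Here CTR 4 and CTR 5 were the highest CTR libraries, the reverse of their place for Npc1, and KO 5 lay below CTR 1. The log2 fold change was 0.17 (SE 0.098, 95% interval -0.045 to 0.38, adjusted p = 0.344), the largest estimate of the 7. Without CTR 4 and CTR 5 it was 0.27 (SE 0.096, 95% interval 0.057 to 0.48, adjusted p = 0.108).

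Stard3, the sterol transfer protein of late endosomes, stood at 83.2, 72.9, 70.3, 73.7 and 98.1 CPM in CTR 1 to CTR 5, and at 86.7, 104, 84.5, 94.8 and 72.0 CPM in KO 1 to KO 5. CTR 5 lay near the top of the KO range and KO 5 near the bottom of the CTR range. The log2 fold change was 0.15 (SE 0.12, 95% interval -0.11 to 0.41, adjusted p = 0.498), and 0.23 (SE 0.12, adjusted p = 0.250) without CTR 4 and CTR 5.

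**Figure D2:**
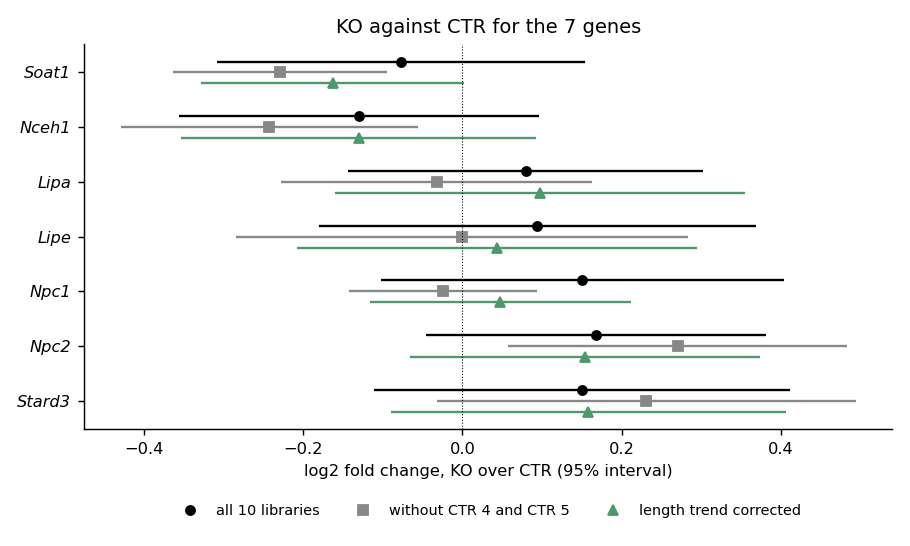
Log2 fold changes of KO over CTR with 95% intervals for the 7 genes, from all 10 libraries (circles), without CTR 4 and CTR 5 (squares) and with a gene length trend removed (triangles). With all 10 libraries every interval spans 0, and without CTR 4 and CTR 5 those of Soat1 and Nceh1 lie below 0 and that of Npc2 above it.

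Leaving out CTR 4 and CTR 5 thus changed the size of the differences and turned the sign for Lipa, Lipe and Npc1. Relative to CTR 1 to CTR 3, their mean log2 CPM was lower by 0.49 for Npc1, by 0.42 for Soat1, by 0.31 for Nceh1, by 0.30 for Lipa and by 0.24 for Lipe. It was higher by 0.24 for Npc2 and by 0.18 for Stard3. For Lipe their values lay within the range of CTR 1 to CTR 3, and the library that moved the value most was CTR 2. For Soat1, Nceh1, Lipa, Lipe and Npc1 these gaps within CTR exceeded the size of the difference between the genotypes in either fit. For Npc2 and Stard3 they exceeded it only in the fit of all 10 libraries. What sets these 2 libraries apart was not tested. Their fibroblast marker sums were the highest (CTR 5, 137 CPM) and the lowest (CTR 4, 30.1 CPM) of the 10 libraries.

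Levels of different genes were compared per length. On the FPKM the authors deposited (counts scaled by gene length and library total), Lipa was highest at 649 ± 94.0 in CTR and 703 ± 65.8 in KO, and Npc2 followed at 306 ± 27.9 and 353 ± 37.6. Nceh1 came next at 77.4 ± 11.6 and 72.4 ± 7.57, then Soat1 at 46.3 ± 8.09 and 44.99 ± 2.21, and Npc1 at 35.8 ± 7.36 and 40.6 ± 0.708. Stard3 stood at 14.7 ± 2.53 and 16.7 ± 2.26, and Lipe at 1.64 ± 0.355 and 1.79 ± 0.0801. The order was the same in both genotypes. Its neighbours did not overlap between libraries except Soat1 and Npc1 in CTR.

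The order in the middle depended on the length used. The gene lengths behind the deposited FPKM, 15666 bases for Npc1 and 13138 for Soat1, were longer than the longest principal transcripts in GENCODE M21, 5224 and 8371 bases. Per kilobase of that transcript Npc1 moved to the third place at 108 ± 19.7 CPM in CTR and 120.3 ± 2.04 in KO, ahead of Nceh1 at 98.6 ± 11.9 and 90.1 ± 9.27 and Soat1 at 73.6 ± 11.4 and 69.8 ± 3.38. Lipa stood at 680.2 ± 85.5 and 719 ± 66.4, and Npc2 drew close to it at 619 ± 59.6 and 695 ± 74.5. Soat1 has a shorter principal transcript of 2925 bases, by which its level would be 211 CPM per kilobase in CTR and 199.7 in KO. The transcripts for the lysosomal lumen, Lipa and Npc2, were the most abundant on either scale and that of Lipe the least.

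**Figure D3:**
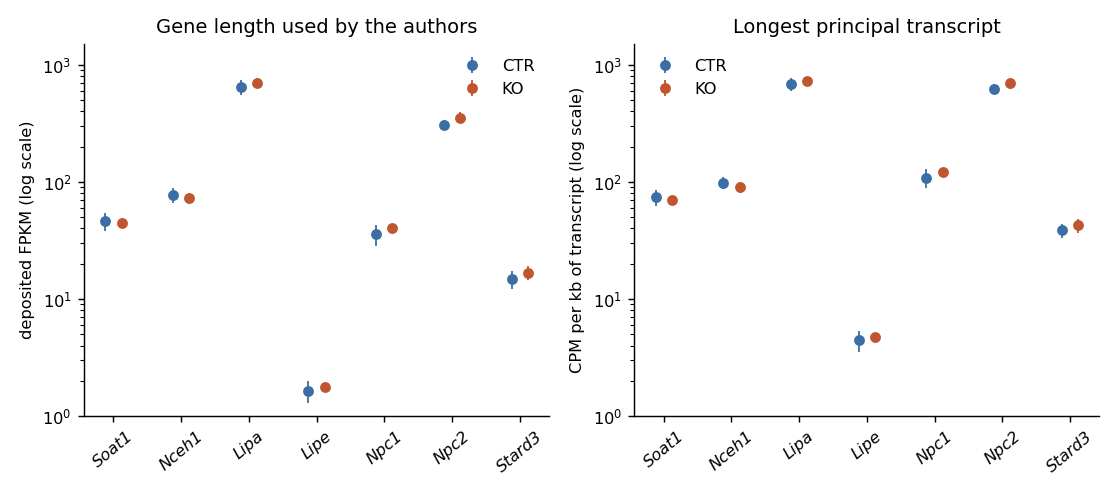
Mean ± SD over 5 libraries per genotype on log axes, as deposited FPKM on the gene length the authors used (left) and as CPM per kilobase of the longest principal transcript (right). Lipa and Npc2 lead on both scales, while Npc1 lies below Soat1 and Nceh1 on the left (35.8 in CTR) and above them on the right (108 in CTR).

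Ratios within a library, which do not depend on how libraries are scaled, compared the transcripts of opposing or partnered steps. They cover RNA only, not protein or enzyme activity. The ratio of Soat1 to Nceh1 per length ran from 0.530 to 0.647 in CTR and from 0.587 to 0.705 in KO, with a difference in mean log2 ratio of 0.06 (exact permutation p = 0.437, two-sided, adjusted p = 0.655 over 3 ratios). Without CTR 4 and CTR 5 the difference was 0.018. The lengths are those behind the deposited FPKM, and they set the size of a ratio but not its difference between genotypes. By its shorter principal transcript Soat1 would lie above Nceh1 in CTR (211 against 98.6 CPM per kilobase). The ratio of Lipa to Nceh1, acid against neutral hydrolase, was 8.47, 7.79, 8.90, 9.02 and 7.88 in CTR 1 to CTR 5, and 10.1, 10.3, 8.79, 9.67 and 9.76 in KO 1 to KO 5. Of the KO libraries 4 lay above all CTR libraries, and KO 3 lay below CTR 3 and CTR 4. The difference of 0.21 in mean log2 ratio did not pass after adjustment (exact permutation p = 0.0238, adjusted p = 0.0714). It was 0.21 without CTR 4 and CTR 5 as well (exact permutation p = 0.0357, adjusted p = 0.107), and 0.25 without KO 3 (adjusted p = 0.0238). Without CTR 4 and CTR 5 the arrangements are so few that a ratio alone cannot pass after adjustment, whatever the data. KO 3 is the KO library that overlaps CTR, and with any other single library left out the adjusted p ran from 0.0714 to 0.119.

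The ratio of Npc1 to Npc2 was 0.134, 0.143, 0.146, 0.0802 and 0.0898 in CTR 1 to CTR 5, and 0.121, 0.106, 0.115, 0.101 and 0.138 in KO 1 to KO 5. The mean log2 ratios were -3.12 ± 0.41 (SD, n = 5) in CTR and -3.12 ± 0.18 (n = 5) in KO, with an exact permutation p of 0.976. The equal means hid a split: CTR 1 lay above all KO libraries but KO 5, CTR 2 and CTR 3 above every one, and CTR 4 and CTR 5 below every one. Without CTR 4 and CTR 5 the difference was -0.29 (exact permutation p = 0.0714, adjusted p = 0.107), with the same limit of few arrangements.

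**Figure D4:**
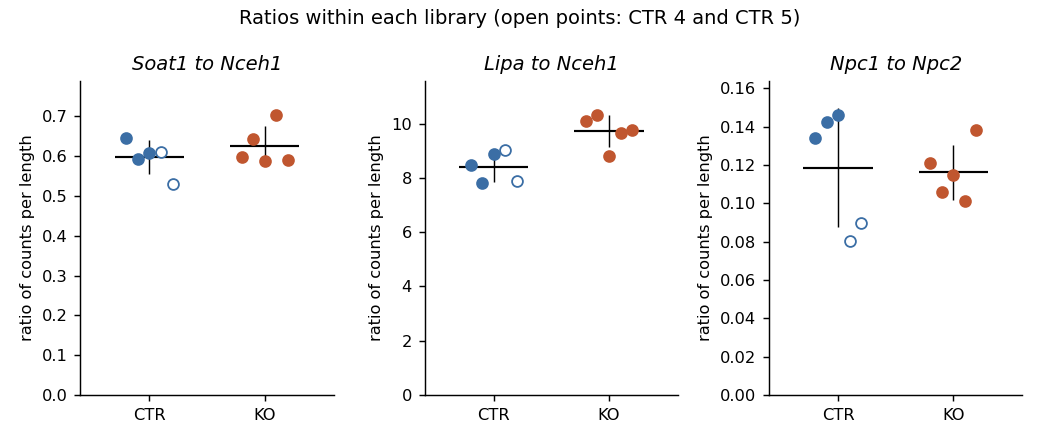
Ratios of counts per length within each library, with axes from 0, the mean as a line and ± SD as a bar, and open points for CTR 4 and CTR 5. The Lipa to Nceh1 ratio runs from 7.79 to 9.02 in CTR and from 8.79 to 10.3 in KO, and the Npc1 to Npc2 ratio of CTR 4 and CTR 5 (0.0802 and 0.0898) lies below all KO libraries.

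How the 7 genes varied together was examined over the 8 libraries other than CTR 4 and CTR 5, after each genotype's mean was removed. Of the 21 pairs, 0 passed an exact permutation test within genotypes after adjustment, and 5 had an unadjusted p under 0.05. The smallest p that 720 arrangements can give is 0.00139. By Pearson's r the closest pair was Npc2 and Stard3 (Pearson r = 0.89, exact permutation p = 0.0153, Spearman rho = 0.76, p = 0.0583, adjusted p = 0.175 for r), with r = 0.87 without KO 4 and KO 5. For each pair the libraries left out were those farthest from the median for the gene named first, without regard to the other gene. Soat1 and Npc1 had r = 0.86 (exact permutation p = 0.0167, rho = 0.69, p = 0.0583, adjusted p = 0.175), and 0.84 without KO 1 and KO 5. By Spearman's rho the closest pair was Nceh1 and Stard3, which ran in opposite directions (rho = -0.90, exact permutation p = 0.00833, r = -0.79, p = 0.0417, adjusted p = 0.175 for each), with r = -0.74 without KO 4 and KO 5. Of the remaining pairs, Lipa and Lipe had r = -0.62 (exact permutation p = 0.0403, rho = -0.57, p = 0.118, adjusted p = 0.175 for r), and -0.84 without KO 4 and KO 5. Lipa and Npc2 had r = -0.79 (exact permutation p = 0.0403, rho = -0.76, p = 0.0333, adjusted p = 0.175), but -0.27 without KO 4 and KO 5, so that relation rests on those libraries.

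The genes most like each of the 7 across all 10 libraries were taken from 8299 candidates by Pearson's r of log2 CPM, as a description. The libraries share their scaling, and CTR 4 and CTR 5 weigh on every such r. Npc1 was closest to Dennd4c (r = 0.99) and Vcpip1 (0.99), Soat1 to Nup98 (0.97) and Washc4 (0.97), and Nceh1 to Kpna4 (0.97) and Acbd3 (0.96). Npc2 was closest to Carhsp1 (0.96) and Tmem60 (0.96), and Stard3 to Hook2 (0.95) and Tnfsf13 (0.94). Lipa was closest to Ccdc88a (0.93) and Ints7 (0.92), and Lipe to Msh6 (0.89) and Tmem214 (0.89). None of these 14 genes is among the 7 or in the pathway lists below, and none passed the test between genotypes.

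The wider pathway was described by 61 further genes in 5 lists, of which 50 were tested. Of these 50 genes, 0 were called higher and 1 lower, and in 5 the genotypes did not overlap, against 1.83%, 2.11% and 7.8% of all genes tested. The median log2 fold change was 0.05. In value 30 were higher in KO and 20 lower.

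Among esterification partners and enzymes of acyl-CoA supply, 0 of 8 tested genes passed in either direction (median 0.00091). Dbi, which encodes the acyl-CoA binding protein, ranged from 95.2 to 142 CPM over CTR and from 53.8 to 94.7 CPM over KO (log2 fold change -0.53, SE 0.16, adjusted p = 0.0787). The genotypes did not overlap, and the value was -0.35 (adjusted p = 0.182) when CTR 4 and CTR 5 were left out. Scd2, a desaturase that makes the monounsaturated acyl chains SOAT1 prefers, had 0.48 (SE 0.22, adjusted p = 0.232), and 0.46 without CTR 4 and CTR 5, but 0.20 without KO 5. Soat2, the intestinal and hepatic relative of Soat1, was low, with means of 1.83 CPM for CTR and 1.18 CPM for KO.

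Among genes of neutral ester and glyceride hydrolysis and its control by protein kinase A, 0 of 9 tested genes passed (median 0.10). Prkar1a, a regulatory subunit that holds the kinase inactive until cyclic AMP binds, ranged from 304 to 371 CPM over CTR and from 259 to 290 CPM over KO, without overlap (log2 fold change -0.24, SE 0.079, adjusted p = 0.0968, and 0.0266 by DESeq2 and 0.0235 by voom). Abhd5, the co-activator of adipose triglyceride lipase, had -0.30 (SE 0.11, adjusted p = 0.131, and 0.0271 by voom). Prkar1a had -0.22 and Abhd5 -0.31 (adjusted p = 0.0631 and 0.0845) when CTR 4 and CTR 5 were left out. Prkaca and Prkacb, the catalytic subunits, had 0.12 and 0.09. The liver and gut esterases of this list, Ces1f, Ces1g, Aadac and Cel, had a count of 0 in every library, and Ces1d in every CTR library.

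Among genes that deliver enzymes to lysosomes or drive their transcription, 0 of 9 passed (median 0.15). Igf2r, a receptor for phosphorylated mannose tags on lysosomal enzymes, had means of 279 ± 71.4 CPM for CTR and 399 ± 109 CPM for KO (log2 fold change 0.52, SE 0.21, adjusted p = 0.172). Gnptg, a subunit of the enzyme that makes those tags, had -0.27 (SE 0.10, adjusted p = 0.1502). With CTR 4 and CTR 5 left out the value of Igf2r was 0.32 (adjusted p = 0.302) and that of Gnptg -0.13 (adjusted p = 0.332), and without KO 5 Igf2r had 0.34. The transcription factor genes Tfeb, Tfe3 and Mitf had 0.15, 0.05 and 0.16.

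Among genes of the lysosomal membrane, lipid co-factors and cholesterol sensing, 0 of 10 rose and 1 fell (median -0.09). That gene was Tmem97, which encodes a sterol-regulated membrane protein known to bind NPC1. Its mean fell from 35.1 ± 3.0 CPM in CTR to 26.2 ± 1.75 CPM (log2 fold change in KO -0.42, SE 0.090, adjusted p = 0.0273), with every KO library below every CTR library. The call was lost with the replicate number as a block (adjusted p = 0.0738, in a fit that called 0.788% of genes) and without CTR 3, KO 1, KO 2 or KO 4 (up to 0.0865), while the log2 fold change in these fits stayed between -0.42 and -0.40. Without CTR 4 and CTR 5 it was -0.37 (adjusted p = 0.0298). The abundant lysosomal membrane genes Lamp1 and Lamp2 had -0.10 and -0.07.

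Among sterol transfer proteins and membrane contact site genes, 0 of 14 passed (median 0.03). Osbpl9, an oxysterol binding protein relative, ranged from 124 to 161 CPM over CTR and from 101 to 122 CPM over KO, without overlap (-0.35, SE 0.093, adjusted p = 0.0554). It passed without CTR 4 and CTR 5 (-0.44, adjusted p = 0.00954) and with the length trend removed (-0.43, adjusted p = 0.0154, in a fit that called 5.07% of genes). Gramd1a, an Aster protein that carries plasma membrane cholesterol to the endoplasmic reticulum, ranged from 30.5 to 38.9 CPM over CTR and from 40.2 to 52.3 CPM over KO, also without overlap (0.35, SE 0.10, adjusted p = 0.0756, and 0.0225 by DESeq2 and 0.0253 by voom), and 0.37 (adjusted p = 0.0704) without CTR 4 and CTR 5. Stard3nl, the relative of Stard3 that lacks its sterol binding domain, had 0.02.

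**Figure D5:**
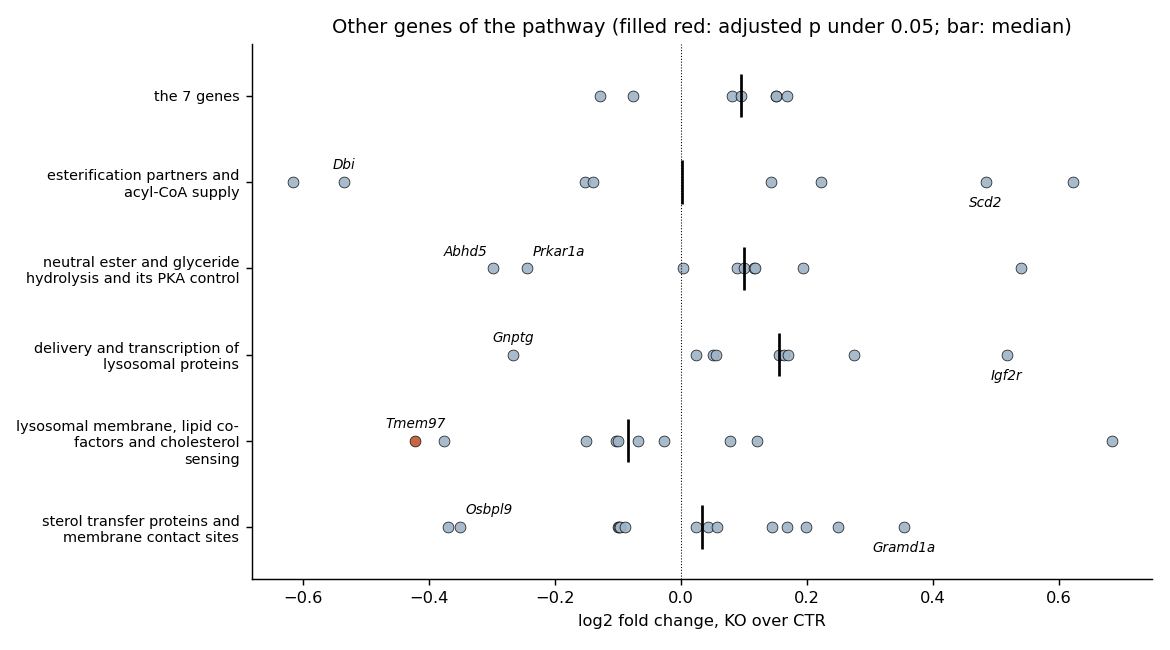
Log2 fold changes of KO over CTR for the 7 genes and for the 50 tested genes of the 5 lists, 1 point per gene, with a bar at each median and names for the genes picked by rule. Only Tmem97 is filled as called (-0.42), and the 7 genes lie between -0.13 and 0.17.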

How the data were processed

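Per the submitters' processing notes, CASAVA 1.8, HISAT2, SAMtools 1.3.1, edgeR and build GRCm39 were used, with no role or order stated. The sources used here name no read counter, annotation release or strand setting. The authors deposited raw counts per Ensembl gene and FPKM values in 1 table, and each of its 20 columns was assigned through the library number that the labels list. The deposited FPKM equal counts over gene length and column total within a relative deviation of 1.76e-05 where a gene had at least 50 counts, and gene lengths were recovered from them. Symbols were matched by identifier for 53274 of 53465 genes, and the other 191 held 0.0403% of the counts.

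The test between genotypes used edgeR 4.0.16 under R 4.3.3 (filterByExpr, TMM, quasi-likelihood test on genotype alone, two-sided, Benjamini-Hochberg over 13203 genes, threshold 0.05). Each standard error is the size of the log2 fold change divided by the root of its F statistic. Ratios were compared by exact permutation of 252 arrangements. Scaling, filter, test (DESeq2 1.42.0, limma 3.58.1), block, length trend (mgcv 1.9.3) and left-out libraries were varied, and the level order by transcript length (GENCODE M21) was chosen after seeing the data. Code was tested on simulated data. The members, lists and settings were chosen with earlier results of these data known. Named genes were the 7, Gnas, called genes of each list (or its 2 of lowest p), and the 2 genes most like each of the 7. Genes given beside these (Lamp1, Prkaca, Tfeb and similar) were chosen after their values were seen. No molecular identifiers are described, so reads need not be separate molecules and count limits cover counting error only.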

Additional observations from a re-analysis of the deposited data

Results flagged for a closer look

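Within each genotype the highest and lowest of the 5 libraries were compared with their nearest neighbour for the 7 genes and the 3 ratios, 20 groups in all, and a gap above 0.71 of the range was taken as outlying. Chance flags about 1 in 20 such groups. Lipe met this in both genotypes. CTR 2 held 21.6 CPM of Lipe, against 15.9 CPM in the next CTR library, a gap of 0.770 of the range. KO 4 held 18.6 CPM, against 17.0 CPM in the next KO library, a gap of 0.818 of a range that was itself narrow. Without CTR 2 the log2 fold change of Lipe was 0.22 (adjusted p = 0.195 by edgeR), against 0.09 with it.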

How the results depend on the processing

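Genes called higher and lower in KO over the whole table numbered 241 and 279, and became 122 and 139 with no filter on low counts, 599 and 690 by DESeq2, 1026 and 893 by voom with quality weights, 694 and 491 without CTR 4 and CTR 5, and from 32 to 484 and from 30 to 384 with 1 library left out. With library-size scaling alone the share called higher was 59.4%, against 46.3%. Under all alternatives run the 7 genes kept their side of the threshold, except Soat1 (-0.23, adjusted p = 0.0438, without CTR 4 and CTR 5), and kept their sign except Lipa (-0.032 in that fit and -0.027 by voom), Lipe (-0.00022) and Npc1 (-0.024), both in that fit. The cause was not tested. With 1 library left out Soat1 ran from -0.14 to -0.028, and Npc1 from 0.066 to 0.20. Of all genes tested, DESeq2 called 9.76%, voom 14.5%, the fit with the length trend removed 5.07% and the replicate block 0.788%. Without CTR 4 and CTR 5 the share was 8.76%. The lists named next held 8, 9, 10 and 14 tested genes, in that order. Called genes in the acyl-CoA list became 1 by DESeq2. In the hydrolysis list they became 1 by DESeq2 and 2 by voom. In the lysosomal membrane list they became 3 by DESeq2, by voom and with the length trend removed, 0 with the replicate block, and 0 to 2 with 1 library left out. In the sterol transfer list they became 2 by DESeq2 and by voom, 1 without CTR 4 and CTR 5 and with the length trend removed, and 0 to 1 with 1 library left out. The Lipa to Nceh1 difference ran from 0.18 to 0.25 and that of Npc1 to Npc2 from -0.13 to 0.091 with 1 library left out, and the latter was -0.29 without CTR 4 and CTR 5.

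The replicate number as a block gave 59 genes higher and 45 lower and 0 calls among the 7. For the ratios an exact sign-flip test over 5 pairs cannot go below an unadjusted p of 0.0625, so it could not pass whatever the data. The labels do not say that equal numbers pair libraries. Their residuals correlated between -0.126 and 0.0582, and 0 of the 5 numbers were each other's best match.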

Other observations

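In the list of lysosomal membrane and cholesterol sensing genes a pair outside the naming rule, chosen after their values were seen, lay just above the threshold in opposite directions. Gpr155, which encodes a cholesterol sensor of the lysosomal membrane, ranged from 8.45 to 17.5 CPM over CTR and from 15.5 to 21.3 CPM over KO (log2 fold change 0.68, SE 0.18, edgeR adjusted p = 0.0571). Rab7, the small GTPase of late endosomes, ranged from 788 to 965 CPM over CTR and from 582 to 813 CPM over KO (-0.38, SE 0.10, adjusted p = 0.0604). In both genes the genotypes overlapped.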
